A study of Mus musculus with 8 samples.

Results

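Immediate early genes are genes that a cell transcribes within minutes of a stimulus from factors it already holds. The 10 described here are Egr1, Fos, Fosb, Jun, Junb, Jund, Atf3, Ier2, Dusp1 and Klf2, taken by name from the 35583 genes of the deposited count table whatever their values. They were followed in microglia, the resident macrophages of the brain, taken by sorting from hypothalami of wild-type mice, described as young, at 20 hours after an injection of plasma protein that carried a dye. Sorting gave plasma-positive microglia, which carried the dye, and plasma-negative microglia from the same kind of animal, and 4 libraries were made from each. Per the series text both groups came from injected mice, and uninjected mice form no group of the comparison. The labels give no numeric age, do not name the surface markers of the sort, and do not say whether libraries came from separate or pooled animals, so the p-values measure the spread between these libraries, which may be technical.

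The products of these genes act in a few families. Fos and Fosb proteins pair with Jun, Junb or Jund to form AP-1, a leucine-zipper transcription factor, and Atf3 is a related leucine-zipper protein that is induced by stress. Egr1 is a zinc-finger transcription factor switched on through MAP kinase and serum response factor signalling, and Dusp1 is a phosphatase that removes the activating phosphates from MAP kinases and so ends the signal. Ier2 is a short nuclear protein of less settled function, and Klf2 is a zinc-finger factor known for restraining inflammatory activation in endothelial cells and macrophages. In microglia the programme is known both as a response to stimulation and as a mark of tissue dissociation, since enzymes, warmth and sorting can raise the same genes in the tube.

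Promoter sequence is shown for Fos, Fosb, Jun, Junb and Dusp1 because these genes are switched on through short elements close to the start, while their levels in these libraries ran from none to among the highest of all tested genes. RefSeq windows of GRCm38.p6, which hold 250 bases before and 50 after a start, were found for 8 of the 10 genes, all but Egr1 and Ier2. The 250 bases before the start are printed on the strand of the gene, 5′ to 3′: Fos at chr12:85473640-85473889 on the plus strand, and Fosb at chr7:19310046-19310295, Jun at chr4:95052223-95052472, Junb at chr8:84978749-84978998 and Dusp1 at chr17:26508473-26508722 on the minus strand. Capitals mark the CRE core TGACG, the letters to which CREB and ATF proteins bind, the full site TGACGTCA, and the TATA box TATAAA, each as read on the printed strand.
Fos: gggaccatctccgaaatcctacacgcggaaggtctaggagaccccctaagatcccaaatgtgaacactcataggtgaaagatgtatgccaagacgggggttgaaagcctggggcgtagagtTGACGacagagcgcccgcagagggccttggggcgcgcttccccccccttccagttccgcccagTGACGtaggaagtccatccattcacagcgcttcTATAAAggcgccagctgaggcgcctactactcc
Fosb: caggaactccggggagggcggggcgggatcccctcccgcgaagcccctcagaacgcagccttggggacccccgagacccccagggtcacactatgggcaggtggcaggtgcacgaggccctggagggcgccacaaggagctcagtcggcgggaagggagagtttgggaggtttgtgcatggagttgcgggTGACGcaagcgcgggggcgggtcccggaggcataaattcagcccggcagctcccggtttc
Jun: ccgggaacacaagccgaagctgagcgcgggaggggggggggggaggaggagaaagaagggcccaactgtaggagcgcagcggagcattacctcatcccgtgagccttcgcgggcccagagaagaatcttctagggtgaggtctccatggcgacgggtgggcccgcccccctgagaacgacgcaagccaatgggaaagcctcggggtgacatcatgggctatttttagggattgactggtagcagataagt
Junb: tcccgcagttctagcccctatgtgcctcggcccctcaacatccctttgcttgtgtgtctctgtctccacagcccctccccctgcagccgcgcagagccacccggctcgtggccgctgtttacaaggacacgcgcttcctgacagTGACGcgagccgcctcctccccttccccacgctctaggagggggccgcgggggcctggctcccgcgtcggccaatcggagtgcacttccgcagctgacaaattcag
Dusp1: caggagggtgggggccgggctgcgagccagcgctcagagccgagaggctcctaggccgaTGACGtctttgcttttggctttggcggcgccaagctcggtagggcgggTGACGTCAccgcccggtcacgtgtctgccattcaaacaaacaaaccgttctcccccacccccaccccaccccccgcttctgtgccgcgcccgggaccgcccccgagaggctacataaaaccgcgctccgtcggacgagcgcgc

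Over the whole 300-base windows and both strands, 6 of the 8 genes (Atf3, Dusp1, Fos, Fosb, Junb and Klf2) held the CRE core, against 20.8% of 32851 promoters of the same length. Only Dusp1 of the 8 held the full CRE, which contains the core on each strand and was present in 1.79% of promoters. Fos carried the core 129 and 66 bases before the start and its TATA box 33 bases before it. The TATA box was in 2 of the 8 windows, Fos and Junb, and in 13.6% of promoters. That of Junb begins at base 1, past the printed bases. Fosb carried 1 core 60 bases before its start, and Junb 1 at 106 bases. The GC box GGGCGG was in 6 of the 8 windows and in 35.7% of all promoters. None of the 8 windows held the AP-1 site TGACTCA or its reverse complement TGAGTCA (5.2% of promoters), the EGR site GCGTGGGCG (0.612%) or a CArG box (1.63%), the element of serum response factor. These are matches to fixed patterns of letters in a short window, so variant sites and sites farther off were not counted. They say nothing of binding.

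Reads were counted per gene, and the 8 libraries held 2963094 to 21422738 counts. Plasma-negative library 4 was the smallest, at 2963094 counts. A level is given as CPM, counts put on a common library size through TMM factors, and 1 count was worth 0.0443 CPM in plasma-negative library 1 and 0.336 CPM in plasma-negative library 4. A gene with 0 counts in a library could therefore have lain at up to 0.133 CPM in the deepest and up to 1.01 CPM in the smallest (3 counts, a limit for counting error alone, as Smart-seq2 reads are PCR copies with no tag for the original molecule). Microglial identity held in both groups: all 8 microglial markers passed the expression filter, and their summed level was 61723 to 72888 CPM in the plasma-negative libraries and 68693 to 73836 CPM in the plasma-positive ones. In a bulk sample, fewer cells of a type and less RNA per cell cannot be told apart.

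Egr1 was the 1 immediate early gene called between the groups: it had 3 counts in all in plasma-negative microglia and was read in all 4 plasma-positive libraries. Of the 10 genes, 8 passed the expression filter, which removed Fos and Fosb. Egr1 passed it through the plasma-positive libraries alone, so a gene with such plasma-negative counts could enter the test only by being higher in the other group. Among these 8, 1 was higher in plasma-positive microglia at an adjusted p under 0.05 (edgeR quasi-likelihood F test, Benjamini-Hochberg over 13277 genes), 0 were lower and 7 were not called. Of all tested genes 1.41% were called, 0.844% as higher and 0.565% as lower. The median log2 difference of the 8 genes, plasma-positive minus plasma-negative, was 0.12, against 0.01 over all tested genes, with 4 of the 8 above 0 and 4 below, while 50.4% of all tested genes lay above 0.

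**Figure D1:**
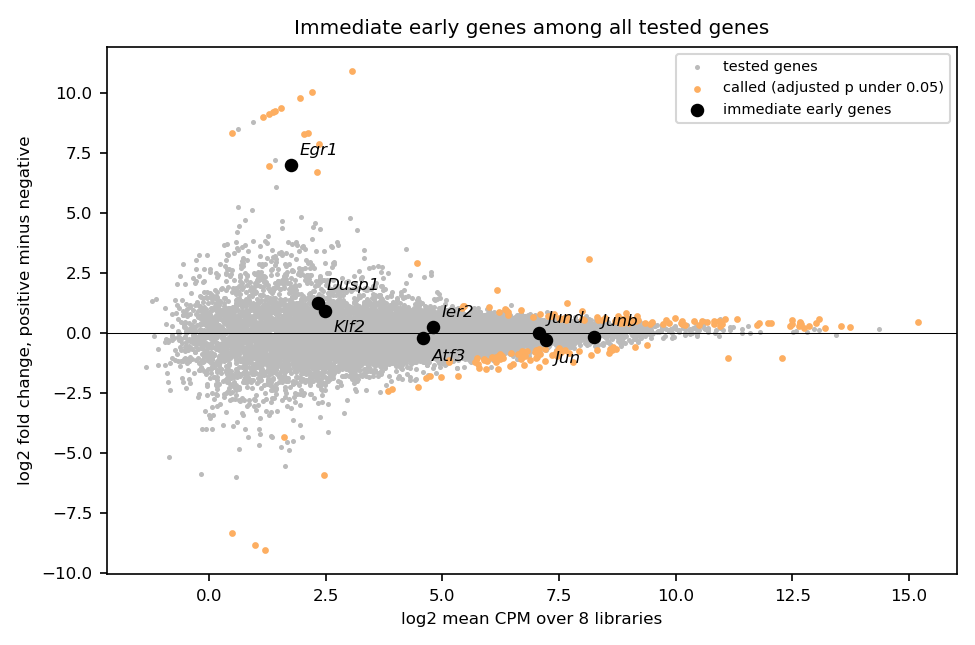
Log2 fold change (plasma-positive minus plasma-negative) against log2 of the mean CPM over 8 libraries for the 13277 tested genes (grey), the 187 called genes (orange) and the 8 tested immediate early genes (black). Egr1 stands at 6.99 among genes of low level, while Jun, Junb and Jund lie near 0 at high levels.

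Egr1 (ENSMUSG00000038418, 4484 exonic bases, 2 to 3 exons per transcript), the zinc-finger factor, had 3, 0, 0 and 0 counts in plasma-negative libraries 1 to 4 and 51, 139, 245 and 16 counts in plasma-positive libraries 1 to 4. As CPM these were 0.133 in plasma-negative library 1, and 5.61, 7.07, 12.4 and 1.79 in the plasma-positive libraries. Every plasma-positive library lay above every plasma-negative one, a separation seen in 10.3% of all tested genes, 5.68% in that direction, and the highest plasma-positive library was well apart from the lowest. The means were 0.0332 ± 0.0664 CPM (SD, n = 4) and 6.72 ± 4.41 CPM (SD, n = 4). The fitted log2 fold change was 6.99 (SE 1.34, adjusted p = 0.0267, edgeR), a size that depends on the prior count because the plasma-negative libraries held 3 counts in all. From the pooled counts, 451 against 3, the ratio of pooled CPM was 153, with a 95% exact conditional binomial interval of 52.2 to 747 that covers counting error only.

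The call of Egr1 was close to the threshold and rested on all 8 libraries. Leaving out any 1 of them, plasma-negative 1 to 4 or plasma-positive 1 to 4, moved the adjusted p in edgeR to between 0.0508 and 0.0957, so the call was lost in each of the 8 cases. The log2 fold change was then 6.53 to 7.32, except without plasma-negative library 1, where the plasma-negative group holds 0 counts and the fitted value of 9.49 has no finite size behind it. Over all 22 alternatives that tested the gene it was called in 9, with adjusted p-values between 4.00e-06 in DESeq2 and 0.326.

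Transcripts of other cell types were present beside Egr1. The 8 neuron markers summed to 6.73 to 40.2 CPM in the plasma-negative libraries. In plasma-positive libraries 1 to 4 they summed to 103, 403, 11.7 and 5.47 CPM. Of the 8, 6 passed the filter, and all 6 had a log2 difference above 0, with a median of 2.37. Over all tested genes 50.4% lay above 0, and the median was 0.01. In edgeR 0 of the 6 were called, and 1 had an unadjusted p under 0.05, against 13.8% of all tested genes. DESeq2 called 2, Map2 and Nefl, as higher, and it called 6.49% of the genes to which it gave an adjusted p. Snap25, a presynaptic SNARE protein, and Meg3, a long noncoding RNA abundant in neurons, were highest in plasma-positive library 2, at 124 and 98.8 CPM. Oligodendrocyte markers summed to 158 to 230.4 CPM and to 311, 559.8, 282 and 224 CPM, with 7 of 8 tested. All 7 had a log2 difference above 0, with a median of 1.72. In edgeR 3 of them had an unadjusted p under 0.05 and 1 was called, against 13.8% and 1.41% of all tested genes. Every plasma-positive library lay above the plasma-negative ones for 2, Cnp and Mal, as for 5.68% of all tested genes. Cnp, an enzyme of myelin, was at 68.9, 79.8, 123 and 123 CPM against 154, 153, 182 and 154 CPM (log2 0.71, adjusted p = 0.113, edgeR). DESeq2 and both RPKM fits called Cnp as higher. The RPKM fits called 447 and 432 of 13277 genes, 86.8% and 85.6% of them as higher. Mal, a myelin proteolipid, was called higher, at 0 to 0.252 CPM against 7.37, 27.2, 2.54 and 2.57 CPM (log2 6.72, SE 1.35, adjusted p = 0.0325, edgeR). Mal had 5 plasma-negative counts in all and, like Egr1, entered the test through the plasma-positive libraries alone. That call held in 2 of 8 cases when 1 library was left out, without plasma-negative library 2 or plasma-positive library 3 (adjusted p 0.048 to 0.151 over the 8), and was lost with the length and GC correction (0.0553), voom weights (0.157) and log2(RPKM + 1) (0.0823). Plasma-positive library 4 had Egr1 at 1.79 CPM (16 counts) with a neuron sum of 5.47 CPM, below that of all 4 plasma-negative libraries, and a monocyte and neutrophil sum of 0. The same library had the highest border macrophage sum of the 8, at 16.5 CPM against at most 3.61 CPM in the plasma-negative libraries, 15.3 CPM of it from Mrc1, the mannose receptor, and an endothelial sum of 45.8 CPM against at most 37.0 CPM. Without plasma-positive libraries 2 and 3, a setting chosen after seeing the data, the log2 fold change of Egr1 was 6.17 (SE 1.93, adjusted p = 0.326, edgeR). The part of other cells in the level of Egr1 was not tested.

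Fos and Fosb, the inducible partners in AP-1, were read almost entirely in 1 library. Fos (ENSMUSG00000021250) was at 0 counts in every plasma-negative library and at 0, 12, 286 and 0 counts in plasma-positive libraries 1 to 4, or 0.610 CPM in the second and 14.5 CPM in the third. Fosb (ENSMUSG00000003545) had 140 counts, 7.11 CPM, in plasma-positive library 3 and 0 counts in the other 7 libraries. The groups overlapped at 0 for both genes, and neither passed the filter of the main test. Fitted without a filter on low counts, edgeR gave Fos an adjusted p of 0.184 and Fosb 0.287, while DESeq2 assigned neither an adjusted p. The plasma-positive mean was 3.78 ± 7.16 CPM (SD, n = 4) for Fos and 1.78 ± 3.55 CPM (SD, n = 4) for Fosb, an SD larger than the mean in each case. Without plasma-positive library 3 the difference between the means was 0.203 CPM for Fos and 0 for Fosb.

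Plasma-positive library 3 also held transcripts that mark neutrophils and some monocytes. S100a8 and S100a9, the paired calcium-binding proteins that fill neutrophil cytosol, had 5908 and 3365 counts there, 299.9 and 171 CPM, and at most 1 count in any other library. Chil3, a chitinase-like protein of monocytes and neutrophils, had 829 counts there and 0 elsewhere. Ccr2, the chemokine receptor of inflammatory monocytes, was distributed otherwise, with 71 and 220 counts in plasma-negative libraries 1 and 2, 38 in plasma-positive library 2 and 0 in the other 5, plasma-positive library 3 included. The 8 markers of this list summed to 516 CPM in plasma-positive library 3, to 0, 0.110 and 1.93 CPM in the other plasma-positive libraries and to 0.291 to 13.8 CPM in the plasma-negative ones. The granulocyte markers Ly6g and Retnlg were at 0 counts in all 8 libraries. None of the 8 passed the expression filter. Whether Fos and Fosb in that library came from these cells was not tested.

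**Figure D2:**
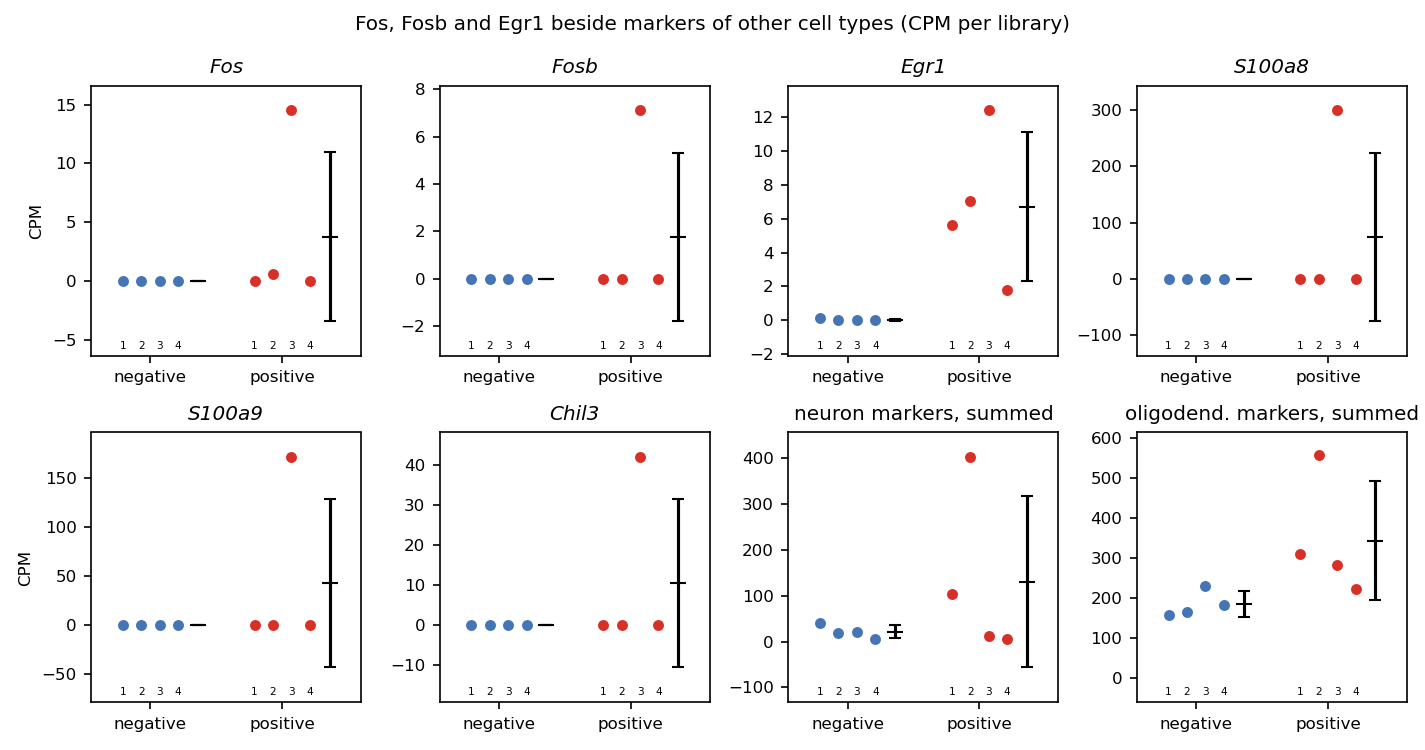
CPM of Fos, Fosb, Egr1, S100a8, S100a9 and Chil3, and summed CPM of the neuron and oligodendrocyte marker lists, in each plasma-negative (blue) and plasma-positive (red) library, numbered 1 to 4, with the group mean ± SD in black. Fos (14.5 CPM), Fosb (7.11 CPM), S100a8 (299.9 CPM), S100a9 and Chil3 peak in plasma-positive library 3, Egr1 is above 1 CPM in all 4 plasma-positive libraries, and neuron and oligodendrocyte sums are highest in plasma-positive library 2.

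Jun, Junb and Jund, the other side of the AP-1 pair, were abundant in both groups and none was called. Junb (ENSMUSG00000052837) was at 331, 318, 332 and 291 CPM in the plasma-negative libraries and 321, 249, 348 and 229 CPM in the plasma-positive ones. The ranges overlapped fully, with means of 318 ± 18.8 and 287 ± 56.7 CPM (SD, n = 4 each) and a log2 difference of -0.15 (SE 0.14, adjusted p = 0.710, edgeR). Jund (ENSMUSG00000071076), the member best known for steady expression in resting cells, was at 133, 148, 117 and 143 CPM against 122, 154, 157 and 104 CPM, and its log2 difference was -0.01 (SE 0.16, adjusted p = 0.992, edgeR). The sign for Jund was positive under several alternatives, upper-quartile scaling and the RPKM fits among them, so no direction can be read for it.

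Jun (ENSMUSG00000052684), a single-exon gene, was at 185, 147, 165 and 160.2 CPM in plasma-negative libraries 1 to 4 and at 124, 137, 150.5 and 127 CPM in plasma-positive libraries 1 to 4. Only plasma-positive library 3 reached into the plasma-negative range, above the 147 CPM of plasma-negative library 2. The means were 164 ± 15.5 and 135 ± 11.9 CPM (SD, n = 4 each), a log2 difference of -0.29 (SE 0.13), and the unadjusted p of 0.0458 became an adjusted p of 0.346 in edgeR. An unadjusted p this low was found for 13.8% of all tested genes. The log2 difference of Jun stayed between -0.45 and -0.16 over 23 alternatives, none of which called the gene.

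Per kilobase of exon, the scale on which genes can be compared, the Jun genes led the list. The deposited RPKM values averaged 101 ± 4.80 for Junb, 59.3 ± 6.28 for Jund and 37.7 ± 3.70 for Jun in plasma-negative microglia (SD, n = 4), and 99.5 ± 20.5, 64.5 ± 13.6 and 33.7 ± 3.37 in plasma-positive microglia. Junb stood above Jund and Jund above Jun in each of the 8 libraries, and Junb was at percentile 98.2 of tested genes in the plasma-negative group and 97.6 in the plasma-positive group. The 3 genes summed to 193 to 206 RPKM in the plasma-negative libraries and 156 to 235 RPKM in the plasma-positive ones. The Fos family (Fos, Fosb, Fosl1 and Fosl2) summed to 0.0479 to 1.31 RPKM and 0.464 to 6.29 RPKM, with the 6.29 in plasma-positive library 3. Fosl1 had 0 counts throughout, and Fosl2, at 11 to 392 and 52 to 163 counts, was not called (log2 -0.41, adjusted p = 0.886, edgeR). The Jun transcripts thus outnumbered those of their Fos partners in every library, and the 3 Jun genes made up 85.7 to 93.2% of the summed CPM of the 10 genes.

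Part of the Jun family signal shares its exons with genes on the other strand, and the sources used here do not state whether counting used strand. Jund shares 52.6% of its exonic bases with Gm11175, whose level of 62.7 to 98.9 CPM put the 8 libraries in the order that Jund did, except that plasma-negative library 2 and plasma-positive library 2 changed places. The overlap was 7.28% for Jun with the antisense transcript Junos, 7.52% for Junb with Prdx2 and 0.332% for Dusp1 with Ergic1. The counts of Jund may thus hold reads of Gm11175, and the reverse, and the level of Jund is uncertain to that extent.

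**Figure D3:**
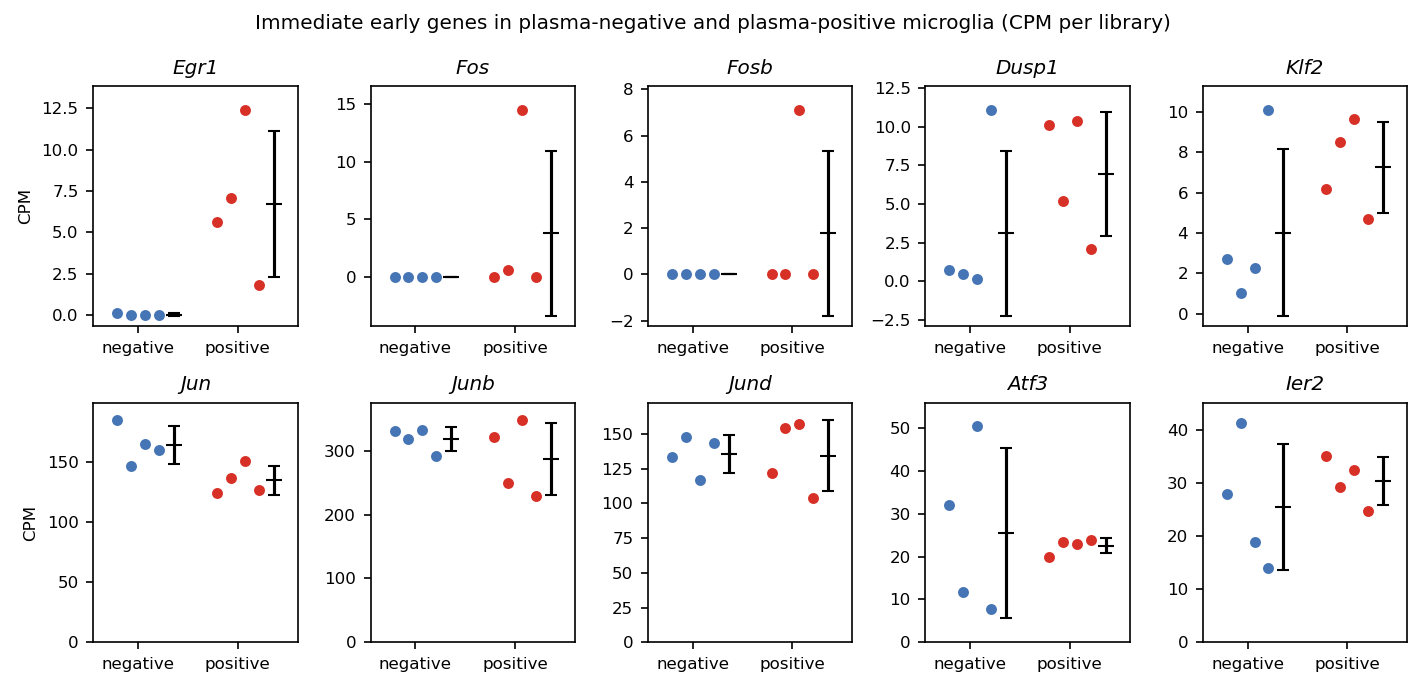
CPM of the 10 immediate early genes in each plasma-negative (blue, libraries 1 to 4 from left to right) and plasma-positive (red) library, with the group mean ± SD (n = 4) in black and a separate linear scale for each gene. Egr1 separates the groups, Fos and Fosb rest on plasma-positive library 3, plasma-negative library 4 stands high for Dusp1 (11.1 CPM) and Klf2 (10.1 CPM), and Jun, Junb, Jund, Atf3 and Ier2 overlap.

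Atf3, the stress-induced leucine-zipper factor, and Ier2 differed most in how much the plasma-negative libraries spread. Atf3 (ENSMUSG00000026628) was at 32.1, 11.8, 50.5 and 7.74 CPM in plasma-negative microglia and at 20.0, 23.5, 22.9 and 23.9 CPM in plasma-positive microglia, so all plasma-positive libraries lay inside the plasma-negative range. The means were 25.5 ± 19.8 and 22.6 ± 1.75 CPM (SD, n = 4 each), with a log2 difference of -0.19 (SE 0.49, adjusted p = 0.920, edgeR) that turned positive, at 0.38, without plasma-negative library 3. Ier2 (ENSMUSG00000053560), a single-exon gene, was at 27.9, 41.3, 18.9 and 14.1 CPM and at 35.2, 29.4, 32.6 and 24.7 CPM. Its ranges overlapped as well, with a log2 difference of 0.24 (SE 0.34, adjusted p = 0.833, edgeR). In RPKM, Ier2 averaged 12.2 and Atf3 8.62 in the plasma-negative group and 16.0 and 8.36 in the plasma-positive group, and Ier2 was above Atf3 in all libraries but plasma-negative 3.

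Dusp1 and Klf2, both low, shared 1 plasma-negative library that ran against the other 3. Dusp1 (ENSMUSG00000024190), the MAP kinase phosphatase, had 16, 7, 3 and 33 counts in plasma-negative libraries 1 to 4 and 92, 102, 204 and 19 in plasma-positive libraries 1 to 4. Plasma-negative library 4, the smallest, thus gave the most Dusp1 reads of its group, and its 11.1 CPM lay above 10.1, 5.19, 10.4 and 2.12 CPM of the plasma-positive libraries, while the other plasma-negative libraries were at 0.708, 0.441 and 0.175 CPM. The log2 difference was 1.26 (SE 1.19, adjusted p = 0.720, edgeR). Without plasma-negative library 4 it was 3.95 with an adjusted p of 0.10, and over all 23 alternatives the adjusted p ran from 0.10 to 0.932.

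Klf2 (ENSMUSG00000055148) likewise had its highest level in plasma-negative library 4. It was at 2.70, 1.01, 2.27 and 10.1 CPM in the plasma-negative libraries and at 6.16, 8.49, 9.64 and 4.69 CPM in the plasma-positive ones, where only plasma-negative library 4 reached above 2.70 CPM in its group. Its log2 difference was 0.90 (SE 0.78, adjusted p = 0.691, edgeR) with all libraries and 1.86 (adjusted p = 0.270) without plasma-negative library 4, in a range of 0.270 to 0.963 for the adjusted p over 23 alternatives. Neither gene was called in any alternative. On the RPKM scale Klf2 averaged 1.61 and 3.14 and Dusp1 0.700 and 1.68 in the plasma-negative and plasma-positive groups, and Klf2 was above Dusp1 in each of the 8 libraries.

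**Figure D4:**
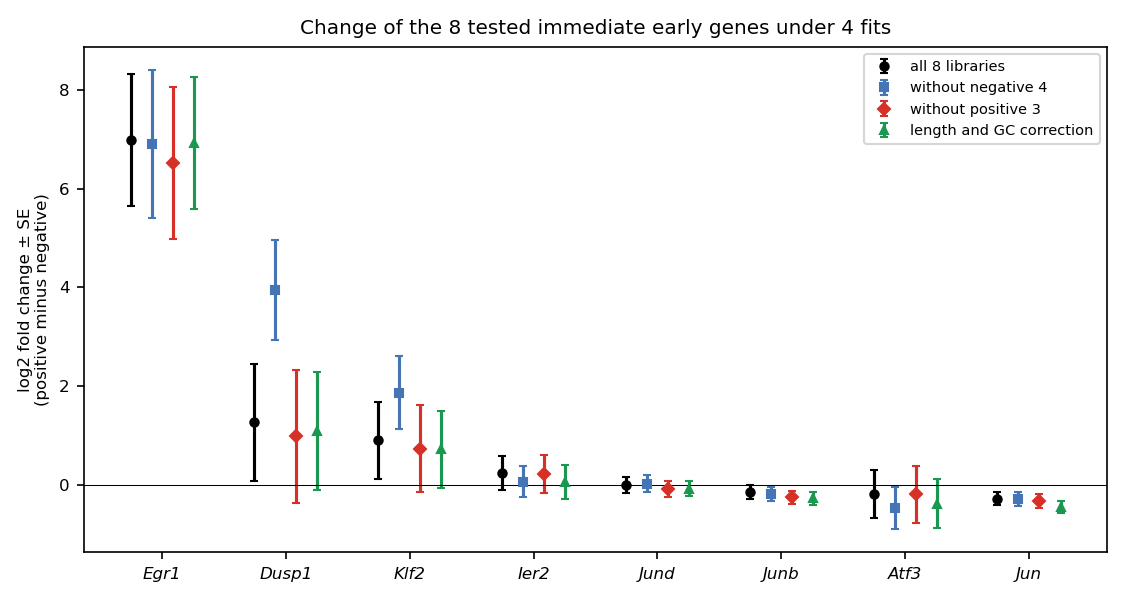
Log2 fold change ± SE (plasma-positive minus plasma-negative) of the 8 tested immediate early genes in the main test and in 3 alternatives: without plasma-negative library 4, without plasma-positive library 3, and with a correction for exon length and GC content. Egr1 stays between 6.53 and 6.99, Dusp1 moves from 1.26 to 3.95 and Klf2 from 0.90 to 1.86 without plasma-negative library 4, and the remaining 5 genes stay near 0.

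Of 32 further immediate early genes, 19 passed the filter and 0 were called in edgeR. Tiparp, an aryl hydrocarbon receptor target named after its values were seen, was the 1 at an unadjusted p under 0.05 (log2 0.75, adjusted p = 0.297) and the 1 of the 19 whose groups did not overlap, at 15.8 to 29.7 CPM against 30.1 to 52.7 CPM. Neither count stands above the share over all tested genes, of which 13.8% had such a p and 10.3% did not overlap, 5.68% in that direction. Egr3, which did not pass the filter, had 0 counts in every plasma-negative library and 39, 28, 9 and 12 in the plasma-positive ones. Its 0.457 CPM in plasma-positive library 3 lies under the 1.01 CPM that a count of 0 allows in plasma-negative library 4, so a separation of all libraries was not detectable at this depth. With no plasma-negative counts it could be fitted only through the other group. DESeq2 called Egr3 (adjusted p = 0.00778) and no other gene of this list, against 6.49% called of all its genes, and edgeR without a filter gave Egr3 an adjusted p of 0.150. The median log2 difference of the 19 was -0.02, against 0.01 for all tested genes, and 9 lay above 0. Sgk1, a serum- and glucocorticoid-induced kinase, had the highest mean level, at 671, 698, 709 and 1026 CPM and at 746, 799, 862 and 739.7 CPM (log2 0.02, adjusted p = 0.967, edgeR). Rhob, an immediate early small GTPase, followed at 489.7 ± 36.9 and 449 ± 43.2 CPM (SD, n = 4 each; log2 -0.12, adjusted p = 0.649, edgeR). The neuronal activity genes Arc, Npas4 and Egr4 had 0 counts in all 8 libraries, as did Ccn1 and Ccn2, which are named here because they were the remaining genes of the list at 0.

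Among 21 further AP-1 and leucine-zipper genes, 19 were tested, 0 were called in edgeR and 3 had an unadjusted p under 0.05, against 13.8% of all tested genes. DESeq2 called 1, Maf, as lower, against 6.49% called of all its genes. The list had a median log2 difference of -0.21, with 4 of 19 above 0, against a median of 0.01 and 50.4% above 0 over all tested genes. Their summed level was 3323 to 3698 CPM in plasma-negative and 3078 to 3266 CPM in plasma-positive libraries, ranges that did not overlap. Maf, a leucine-zipper transcription factor of macrophages, was at 659, 661, 659 and 637 CPM against 562, 559, 462 and 456 CPM, without overlap between the groups, and missed the threshold in the main test (log2 -0.36, SE 0.09, adjusted p = 0.0849, edgeR) but not with totals only, which shifts all genes down (adjusted p = 0.0310). A separation with plasma-positive libraries below was seen in 4.59% of all tested genes.

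Of 7 other MAP kinase phosphatases 5 were tested and 0 called in edgeR, with 2 at an unadjusted p under 0.05 (13.8% of all tested genes) and a median of -0.39. Those 2, Dusp7 and Dusp16, had every plasma-positive library below every plasma-negative one (4.59% of all tested genes), and DESeq2, with 6.49% called over all its genes, called both as lower. Dusp6, the ERK-selective phosphatase, was at 905 ± 129 and 951 ± 149 CPM (SD, n = 4 each; log2 0.07, adjusted p = 0.870, edgeR), and Dusp7 at 190 ± 15.8 and 145 ± 14.1 CPM (log2 -0.39, SE 0.13, adjusted p = 0.169, edgeR). Dusp16, a phosphatase of JNK and p38 named after its values were seen, was at 31.3, 39.3, 44.3 and 37.0 CPM against 15.4, 29.3, 19.0 and 10.2 CPM (log2 -1.03, adjusted p = 0.177, edgeR). All 31 upstream kinases and transcription factors were tested and 0 were called in edgeR, with 4 at an unadjusted p under 0.05 and a median of 0.01. DESeq2 called 2, Map2k1 as higher and Mef2a as lower. Each RPKM fit called Map2k1 alone, as higher, against 447 and 432 of all 13277 genes, 86.8% and 85.6% of them as higher. Mef2c, a microglial MADS-box factor, had a log2 difference of -0.21 (adjusted p = 0.454, edgeR) and Rps6ka1, a kinase downstream of ERK, one of 0.30 (adjusted p = 0.364, edgeR). Nab1 and Nab2, the corepressors that bind EGR proteins, were low and called by no tool, at 8.57 ± 5.80 and 12.3 ± 6.47 CPM for Nab1 and 16.2 ± 5.86 and 18.1 ± 10.9 CPM for Nab2 (SD, n = 4 each).

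Other genes that tissue dissociation is known to raise were compared in the same fit. Of 14 heat shock genes 11 were tested and 1 was called, against 1.41% of all tested genes, 0.844% as higher. Hspa8, the constitutive Hsc70 chaperone, rose from 118, 93.9, 126 and 144 CPM to 192, 175, 221 and 199 CPM, with no overlap, as for 5.68% of all tested genes in that direction (log2 0.71, SE 0.15, adjusted p = 0.0402, edgeR). Leaving out each of the 8 libraries in turn kept that call once (1 of 8), and the adjusted p then ran from 0.0319 to 0.115. The median of the 11 was 0.17, and the list summed to 1954 to 2122 CPM and 2136 to 2274 CPM, ranges that did not overlap. Hspa5, the chaperone of the endoplasmic reticulum, which carries much of that sum, was not called (log2 0.11, adjusted p = 0.524, edgeR), nor was Hsp90ab1 (log2 0.04, adjusted p = 0.920). Of 14 inflammatory genes 12 were tested and 0 called in edgeR or DESeq2, with 2 at an unadjusted p under 0.05 (13.8% of all tested genes) and a median of 0.35 (0.01 over all tested genes). Both RPKM fits called 1, Bcl2a1b, as higher, against 447 and 432 of all 13277 genes, 86.8% and 85.6% of them as higher. Icam1, an adhesion molecule, was at 231 ± 39.1 and 300.4 ± 26.0 CPM (SD, n = 4 each; log2 0.38, adjusted p = 0.223, edgeR), and Cd83 at 242 ± 62.2 and 269 ± 11.8 CPM (log2 0.16, adjusted p = 0.732). The inflammatory list summed to 894 to 997 and 931 to 1098 CPM, overlapping ranges.

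The 10 genes also differed from the average gene in structure. Their median exon length was 2326 bases and their median GC content 56.6%, against 3976 bases and 49.1% over tested genes. With a per-library correction for both, Egr1 had a log2 fold change of 6.93 and an adjusted p of 0.043 in edgeR and the other 7 tested genes remained uncalled.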

How the data were processed

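Bulk RNA-seq was analysed from 8 Smart-seq2 libraries. The deposited count table holds the authors' whole-number read counts per gene, and the deposited RPKM table the authors' RPKM values (reads relative to exon length and library size), both per the file headers. The submitters' processing notes name bcl2fastq, Trim Galore, STAR, HTSeq and mm10, with no versions. Strand use and multi-mapping are not given in the sources used here. Each library's group and number come from its title, and 4 libraries stand in each group. Of 35583 gene identifiers 35546 were in GENCODE M21, which gave exon lengths, overlaps and GC content.

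The test was that of edgeR 4.0.16 under R 4.3.3 on the counts (TMM, expression filter by group, quasi-likelihood F test, Benjamini-Hochberg over 13277 genes, threshold 0.05). The SE was taken as the size of the log2 fold change over the root of the F statistic. Fitted log2 fold changes used the default prior count of edgeR. Logs of CPM, in the profiles and the length and GC correction, used a prior count of 2. The script was tested on simulated data. Alternatives were relative log expression, upper-quartile and total scaling, 2 other filters, DESeq2 1.42.0, voom with quality weights and RPKM fits in limma 3.58.1 (pseudocounts 1 and 0.1), the replicate block, a loess correction for length and GC (span 0.3) with and without the block, thinning to the smallest library, each library left out, and 2 pairs of libraries left out, chosen after seeing the data.

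The 10 genes, the lists and the tests were chosen with earlier results of these data known. All 10 are named, as are up to 4 called genes of each list, the 2 most abundant where fewer than 2 were called, the 2 most abundant and up to 2 called markers of each cell type, and the 5 genes nearest in profile; 2 genes that the rule selects are not reported here. Genes named outside this rule, Egr2, Egr3, Nr4a1, Nr4a2, Tiparp, Dusp16, Map2k1, Mef2a, Map2, Nefl, Bcl2a1b, Aldh1l1, Fosl1, Fosl2, Hspa1a, Hspa1b, Hspb1, Chil3, Ccr2, Cx3cr1, Ly6g, Retnlg and the genes at 0 or overlapping a listed gene, were chosen after their values were seen.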

Additional observations from a re-analysis of the deposited data

Results flagged for a closer look

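Within groups of 4 libraries, 16 of 121 comparisons (13.2%) had 1 library apart from the other 3 by Dixon's 95% criterion. Chance gives about 5% for independent, normally distributed values, which these CPM values and list sums need not be. That rate does not hold for the 6 of the 16 in which the other 3 libraries were at 0 and any count would stand apart. Among the immediate early genes these were Egr1 in plasma-negative library 1 (0.133 CPM, the others at 0), Fos and Fosb in plasma-positive library 3 (14.5 and 7.11 CPM) and Dusp1 in plasma-negative library 4 (11.1 CPM, the next at 0.708 CPM). Plasma-negative library 4 also stood apart for Sgk1 (1026 CPM, next 709), Csf1r, the receptor that keeps microglia alive (11473 CPM, next 10577), and, as the lowest, Maf (637 CPM, next 659). Plasma-positive library 3 stood apart for S100a8 (299.9 CPM), S100a9 (171 CPM), the summed monocyte and neutrophil markers (516 CPM, next 1.93) and Cnp, an enzyme of myelin (182 CPM, next 154). Plasma-positive library 2 was apart for the summed inflammatory list (931 CPM, the lowest, next 1080.3), the summed astrocyte markers (302 CPM, next 228) and Pf4, a chemokine of platelets and border macrophages (0.661 CPM, the others at 0). In plasma-negative library 3, Pf4 (3.61 CPM) and S100a9 (0.0582 CPM, 1 count) were read where the other 3 libraries had 0.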

How the results depend on the processing

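The number of genes called moved from 187 to 74 with the replicate block, 81 with the length and GC correction, 19 with both, 965 in DESeq2, 447 and 432 in limma on log2(RPKM + 1) and log2(RPKM + 0.1), 15 without plasma-positive libraries 2 and 3, 96 without plasma-negative library 4 and plasma-positive library 3, and 66 to 203 when 1 library was left out. The share called higher, 59.9% in the main test, was 76.5% with the length and GC correction, 86.8% and 85.6% in the RPKM fits and 28.2% with library totals only, which moved the median of all genes to -0.11 on the log2 scale.

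Of the immediate early genes, 0 were called with the replicate block, with the block and the length and GC correction, with voom quality weights, when thinned to the smallest library (where Egr1 failed the filter), under both pairs of left-out libraries and in all 8 leave-one-out fits (0 to 0). Egr1 then had log2 fold changes and adjusted p-values of 7.63 and 0.0906 with the replicate block, 7.57 and 0.148 with block and correction, 5.86 and 0.0871 in voom, and 6.43 and 0.127 without plasma-negative library 4 and plasma-positive library 3. It stayed called with all other scalings, filters and tools. Of other immediate early genes DESeq2 called 1, and leaving out a library 0 to 0. Of the dissociation lists, 1 gene was called in the main test, 0 with relative log expression, totals only, the block, the length and GC correction, both together, thinning and both pairs of omissions, 2 in each RPKM fit, and 0 to 1 leaving out a library. Signs turned for Jund (-0.01 to 0.02 with upper-quartile factors, 0.10 in both RPKM fits, 0.00 thinned, and -0.09 to 0.10 leaving out a library) and Atf3 (-0.19 to 0.16 with the block, 0.24 and 0.32 in the RPKM fits, and -0.48 to 0.38 leaving out a library). Other uncalled genes near 0 turned as well. Sgk1 was at 0.00 with relative log expression, the length and GC correction and DESeq2, -0.09 with totals only, -0.06 without plasma-positive libraries 2 and 3, and -0.04 to 0.19 leaving out a library. Dusp6 was at -0.04 with totals only, -0.05 when corrected for length and GC, -0.06 when the block was also in the fit, and -0.03 to 0.15 leaving out a library. Hsp90ab1 was at -0.08, -0.12 and -0.11 in those 3 fits, 0.00 without plasma-negative library 4 and plasma-positive library 3, and -0.02 to 0.10 leaving out a library. Mef2c was at 0.24 after correction for length and GC and at 0.26 when blocked too, Cd83 to -0.02 with the correction, and Hspa5 to 0.00 with totals only. Nab2 was at -0.07 with correction and block and -0.32 to 0.39 leaving out a library, Nab1 at -0.07 without plasma-positive libraries 2 and 3, and Pecam1 at 0.00 to 0.58 leaving out a library. In voom Snap25 was at -0.28 and Meg3 at 0.00. The cause of these moves was not tested. Of the log2 fold changes of 38 named and tested genes under these alternatives, 753 kept their direction and side of the threshold, 66 lost the call, 10 gained one and 42 reversed. The untested difference of mean CPM ran from 0.203 to 5.04 for Fos and from 0 to 2.37 for Fosb leaving out a library, lowest without plasma-positive library 3.

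The labels do not say whether equal replicate numbers share an animal, and a correlation of deviations cannot settle it. Deviations of same-numbered libraries correlated at 0.011 to 0.031, with a mean of 0.017 against -0.005 for different numbers. Of 4 plasma-negative libraries, 1 correlated best with its own number. Depth limits what a count of 0 shows: in plasma-negative library 4, where Egr1, Fos, Fosb and Egr3 were at 0, it allows up to 1.01 CPM.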

Other observations

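Egr2, a relative of Egr1 and Egr3 in the same zinc-finger family, had 7, 99, 1 and 0 counts against 0, 7, 0 and 35 counts, with no separation of the groups. The orphan nuclear receptor Nr4a1 had 86, 1, 0 and 0 counts against 19, 54, 28 and 40 counts (log2 1.39, adjusted p = 0.755, edgeR).

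A few low genes were read mainly in plasma-positive library 3 or in libraries 2 and 3. Nr4a2 had 55 and 79 counts in plasma-positive libraries 2 and 3 and at most 5 in any other library. The stress-inducible chaperones Hspa1a, with 3 and 10 counts in the same libraries, and Hspb1, with 11 and 40 counts, had at most 1 count elsewhere, and Hspa1b had 18 counts in plasma-positive library 3 and at most 1 elsewhere. These genes were named after their values were seen.

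The mean profile of the 8 tested immediate early genes over the libraries was set largely by Egr1 and Dusp1. The 5 other genes nearest to it, by root mean square difference of centred log2 CPM over 8 libraries, were Aldh2 (0.222), Abcf3 (0.243), 5830462I19Rik (0.246), Qdpr (0.262) and Mt1 (0.270). Mt1, a metal-binding metallothionein, was at 56.1 ± 5.84 and 109 ± 17.3 CPM (SD, n = 4 each), and Aldh2, mitochondrial aldehyde dehydrogenase, at 25.4 ± 5.59 and 49.5 ± 8.18 CPM. A likeness found by ranking all genes on these libraries is a description only.

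Of the 8 microglial markers 2 were called higher, against 0.844% of all tested genes: Csf1r (10769.9 ± 471 and 13113 ± 332 CPM, log2 0.28, adjusted p = 0.00489, edgeR) and Olfml3 (5045 ± 314 and 6518 ± 288 CPM, log2 0.37, adjusted p = 0.00647), and both calls held when any 1 library was left out. Cx3cr1, the fractalkine receptor, named after its values were seen, lay the other way, at 11457, 11295, 11179 and 12272 CPM against 10645, 10412, 10781 and 11116 CPM, without overlap (log2 -0.11, adjusted p = 0.232, edgeR). Among astrocyte markers 5 of 8 were tested, 4 of them above 0, with a median log2 difference of 2.29, against 0.01 over all tested genes. Slc1a3 had a log2 difference of -0.36 (adjusted p = 0.326, edgeR) and Slc1a2 one of 2.74 (adjusted p = 0.323, edgeR). In edgeR 0 were called (3 at an unadjusted p under 0.05, against 13.8% of all tested genes). DESeq2 called 1 (6.49% of all its genes). That 1 was Aldh1l1, which had 0 counts in every plasma-negative library and could be called only as higher. Mbp, the myelin basic protein, stood at 40.8 ± 18.5 and 71.5 ± 58.6 CPM (adjusted p = 0.516, edgeR). Endothelial and border macrophage lists had 1 tested gene each, Pecam1 (log2 0.31, adjusted p = 0.810) and Mrc1 (log2 2.93, adjusted p = 0.429), and Cldn5 was at 0 counts in the plasma-negative group and at most 4.63 CPM in the plasma-positive group.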
